A study of Mus musculus with 26 samples.

Results

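Cirbp and Rbm3 encode the cold-inducible RNA-binding proteins of mammalian cells, and the values below describe these 2 genes among the 20430 gene rows of the RNA tables and the 19941 rows of the ribosome footprint tables. Both were found by symbol, and both passed the filter on low counts in every fit. The cells were NIH3T3, an established line of mouse embryonic fibroblasts with no engineered allele named in the labels. Polyadenylated RNA was sequenced in 16 libraries of 8 groups, and ribosome footprints, the mRNA fragments that ribosomes shield from nuclease, in 10 libraries of 5 groups. The heat groups were an untreated control, 44 °C for 2 h and 42 °C for 8 h. The second experiment had its own untreated control, which was shared by H2O2 (oxidative stress) for 2 h or 7 h and KCl (osmotic stress) for 2 h or 7 h, and the labelled footprint libraries covered these 5 groups. The labels give neither the dose of H2O2 or KCl nor the growth temperature of the controls. Each group had 2 replicates. Nothing says that they came from separate cultures, so p-values measure the spread between these libraries, which may be technical.

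Cirbp and Rbm3 are small proteins with an RNA recognition motif followed by a glycine-rich tail. Their mRNAs are known to rise when mammalian cells are cooled mildly and to fall when they are warmed, without the heat shock factor that drives chaperone genes. Both are also known to respond to stresses other than temperature, among them low oxygen for Rbm3 and ultraviolet light for Cirbp, and Cirbp can leave the nucleus for stress granules, the cytoplasmic clusters of stalled mRNA. Alternative splicing of both transcripts is known to depend on temperature, with RNA forms that do not encode the full protein favoured in warm cells.

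The known cold-responsive sequence upstream of Cirbp is shown because it is the regulatory element through which mild temperature shifts are reported to act on this gene. In RefSeq annotation of GRCm38.p6, the assembly also called mm10 that the submitters' processing notes name, Cirbp spans chr10:80165990-80172786 with 8 transcripts. One of its annotated starts is preceded by the 250 bases at chr10:80167589-80167838 on the plus strand, in which the capitals mark the mild-cold responsive element TCCCCGCC, bound by the transcription factor Sp1.
Cirbp: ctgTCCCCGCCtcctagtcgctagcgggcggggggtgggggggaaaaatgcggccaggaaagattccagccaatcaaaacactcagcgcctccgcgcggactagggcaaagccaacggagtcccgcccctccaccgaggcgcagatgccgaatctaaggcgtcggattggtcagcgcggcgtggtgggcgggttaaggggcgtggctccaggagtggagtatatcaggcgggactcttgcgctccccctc
Counting back from the start, the element began at position -247 on the gene's strand. RefSeq promoter windows ran from 250 bases before a start to 50 after it, and only the 250 bases before it were searched. Of 32851 such windows, 4.64% held the element in that part on either strand. The same 250 bases of Cirbp held 3 matches to GGGCGG (a core bound by Sp1), which 32.7% of windows contained, and 2 matches to CCAAT, which 33.8% contained. Neither the heat shock factor motif GAANNTTC, present in 6.69% of windows, nor the NFAT5 element of the osmotic response, present in 4.31%, was found there. A second annotated Cirbp window, at chr10:80167921-80168220, did not hold TCCCCGCC in its 250 bases before the start. Rbm3 spans chrX:8138975-8145880 with 5 transcripts, and 454 of its bases are shared with the antisense long noncoding RNA Rbm3os at chrX:8145427-8147964.

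Total expected counts were 24441877 to 45244430 per RNA library and 1460751 to 5168537 per footprint library. The 8 fibroblast markers examined (such as Col1a1, Vim and Pdgfrb) all averaged at least 1 TPM in RNA, with summed levels of 4112 to 10606 TPM per library. Of 9 markers of other cell types, 3 (Cd68, Krt18 and Tubb3) averaged at least 1 TPM in RNA, the 9 summed to 24.8 to 85.5 TPM and 1 was at 0 in every RNA library. As a check of the heat labels, 10 of 10 chaperone genes controlled by HSF1 were higher at both temperatures, with median log2 fold changes of 2.14 at 44 °C and 2.41 at 42 °C. Of all 12747 genes tested, 71.0% at 44 °C and 63.6% at 42 °C were called in either direction, 4510 and 4041 of them higher. The count alone did not set heat apart from KCl. Of the same 10 genes, 9 were higher and 0 lower at 2 h KCl, and 7 higher and 2 lower at 7 h KCl. Their medians were smaller there, at 0.56 and 0.44. H2O2 gave 2 higher and 2 lower at 2 h and 4 and 4 at 7 h.

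Rbm3 was by far the more abundant transcript. TPM divides counts by transcript length and scales each library to the same sum, so it allows levels of different genes to be compared. In untreated cells of the heat experiment, Rbm3 stood at 821 and 771 TPM and Cirbp at 32.8 and 30.8 TPM, and in those of the H2O2/KCl experiment Rbm3 stood at 980 and 973 TPM and Cirbp at 39.6 and 41.9 TPM. Among the genes at 1 TPM or more, Rbm3 ranked 175 of 11396 in the heat control and 145 of 11045 in the H2O2/KCl control, while Cirbp ranked 5522 and 4453. The ratio of Rbm3 to Cirbp TPM was 25.05 and 25.03 in the heat control libraries and 24.7 and 23.2 in the H2O2/KCl control libraries.

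**Figure D1:**
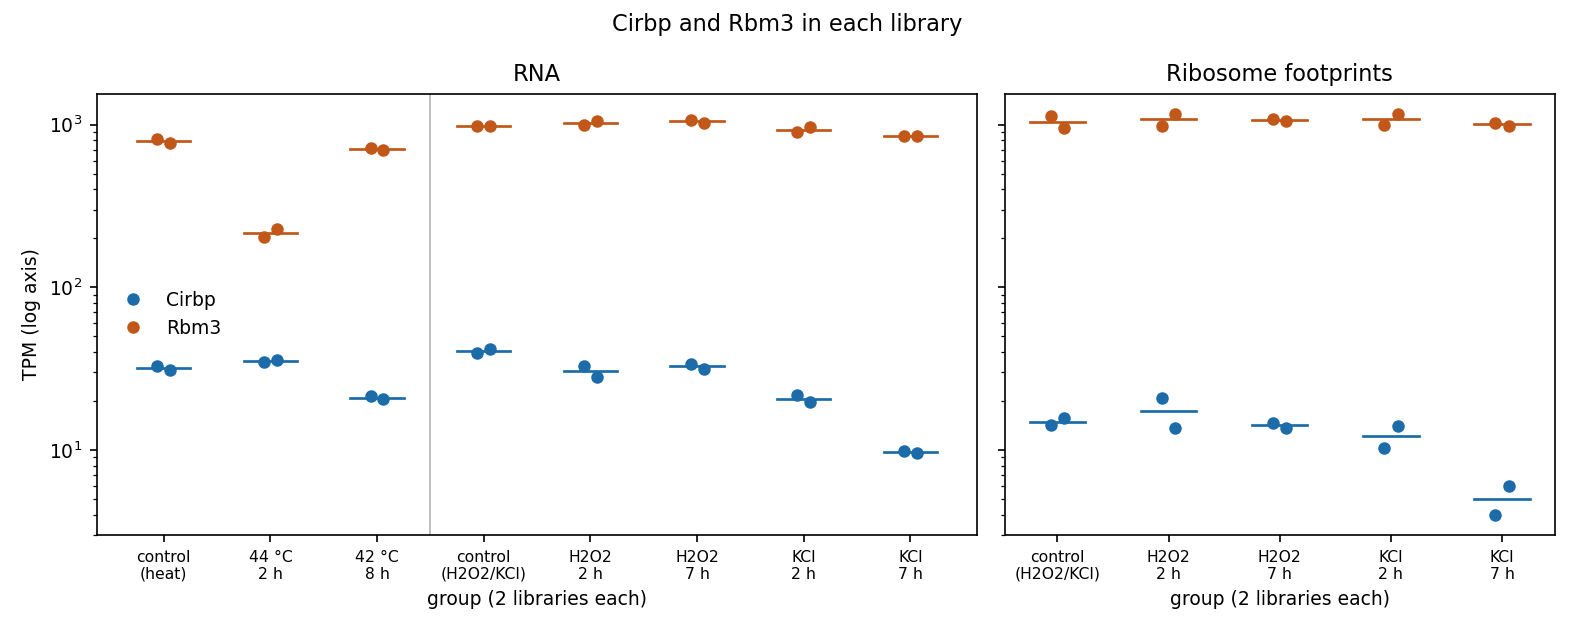
TPM of Cirbp and Rbm3 (log axis) in each RNA library (left) and footprint library (right), by group. Points are single libraries, bars are means of 2 libraries, and the vertical line separates the 2 experiments; Rbm3 drops at 44 °C for 2 h and Cirbp in the 7 h KCl group.

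Rbm3 mRNA had its lowest level, and its largest change on counts, at 44 °C for 2 h. Its level was 203 and 228 TPM there (215 ± 17.7, SD, n = 2) against 796 ± 35.4 TPM (n = 2) in the heat control. The groups lay far apart, and no RNA library of any other group was below 698 TPM. On CPM (counts scaled by the TMM library size), Rbm3 changed from 470 ± 21.7 in the control to 159 ± 19.5, a 2.95-fold fall. The log2 fold change was -1.56 (SE 0.065, adjusted p = 9.90e-11 by edgeR's quasi-likelihood test over 12747 genes). In this comparison 71.0% of all genes tested passed the same threshold, so passing it says little by itself, but 1.55% of genes had a lower log2 fold change than Rbm3. In bulk RNA, a fall in every cell and a loss of RNA from part of the cells cannot be told apart.

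After 8 h at 42 °C, Rbm3 was close to its control on counts and slightly below it on TPM. The libraries read 717 and 698 TPM, both below the control libraries at 821 and 771 TPM. The log2 fold change on counts was 0.01 (95% interval -0.13 to 0.14, adjusted p = 0.926), with 63.6% of genes called. With log2(TPM + 1) and limma it was -0.17 (adjusted p = 0.0211), a scale on which the median of all genes lay at -0.16. The 2 heat treatments themselves differed, since Rbm3 was 2.97-fold higher at 42 °C for 8 h than at 44 °C for 2 h (log2 difference 1.57, adjusted p = 5.15e-11, 75.1% of genes called). Temperature and time changed together between these groups, so their parts cannot be told apart.

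Cirbp responded to heat in another way. At 44 °C for 2 h the libraries read 34.9 and 35.7 TPM, slightly above the control libraries at 32.8 and 30.8 TPM, while the counts gave 14.1 ± 0.452 CPM against 15.5 ± 1.19 CPM. The log2 fold change on counts was -0.15 (95% interval -0.31 to 0.02, adjusted p = 0.104). On log2(TPM + 1) the sign was the opposite, 0.15 (adjusted p = 0.0412, limma), a scale on which the median of all genes lay at 0.052. The direction of Cirbp at 44 °C thus differed between the fit on counts and the fit on TPM. The value on counts was 1.11-fold lower.

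After 8 h at 42 °C Cirbp fell on both scales. Its libraries held 21.4 and 20.4 TPM (20.9 ± 0.707, n = 2) against 31.8 ± 1.39 TPM in the control, with no overlap. On counts this was a 1.41-fold fall, with a log2 fold change of -0.50 (SE 0.081, edgeR, adjusted p = 1.04e-04). In this comparison 63.6% of genes were called, and 15.9% had a lower log2 fold change than Cirbp. On log2(TPM + 1) the value was -0.58, where the median of all genes lay at -0.16. Compared directly with 44 °C for 2 h, Cirbp was lower at 42 °C for 8 h by a log2 difference of -0.35 on counts (edgeR, adjusted p = 0.00157). On log2(TPM + 1) the difference was -0.73 (limma, adjusted p = 1.13e-06), a scale on which the median of all genes lay at -0.20.

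Under H2O2 Cirbp was modestly lower at both times. The H2O2/KCl control held 40.7 ± 1.58 TPM, while 2 h H2O2 gave 32.7 and 28.0 TPM and 7 h gave 33.6 and 31.5 TPM. No treated library reached the control libraries. The log2 fold changes on counts were -0.44 at 2 h (SE 0.090, adjusted p = 0.00103) and -0.29 at 7 h (SE 0.091, adjusted p = 0.00979), in comparisons where 53.9% and 70.5% of 13256 genes were called. The call at 7 h was lost when control replicate 2 or treated replicate 2 was left out (-0.26 each, adjusted p = 0.0627 and 0.0654). The 7 h libraries did not differ detectably from the 2 h libraries (0.14, 95% interval -0.06 to 0.35, adjusted p = 0.182, 73.4% of genes called).

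Rbm3 was slightly higher after 7 h of H2O2, in a call that did not hold under every alternative. Its libraries read 997 and 1049 TPM at 2 h and 1073 and 1029 TPM at 7 h, all above the control libraries at 980 and 973 TPM. The log2 fold change was 0.10 at 2 h (95% interval -0.03 to 0.22, adjusted p = 0.182) and 0.18 at 7 h (SE 0.058, adjusted p = 0.0126). The 7 h call was lost on log2(TPM + 1) (0.11, adjusted p = 0.120) and when only the compared groups entered the fit (0.12, adjusted p = 0.0549). It was also lost without H2O2 7 h replicate 1 (0.07, adjusted p = 0.415) and without control replicate 2 (0.17, adjusted p = 0.0660). The difference between 7 h and 2 h was 0.09 (adjusted p = 0.198).

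KCl gave the deepest fall of Cirbp, and it deepened with time. The libraries held 21.6 and 19.6 TPM at 2 h and 9.84 and 9.62 TPM at 7 h, against 39.6 and 41.9 TPM in the control, with no overlap between any of the 3 groups. Expected counts were 984 and 818 in the control and 134 and 94 at 7 h. On counts Cirbp was 1.86-fold lower at 2 h (log2 -0.89, SE 0.096, adjusted p = 2.92e-06, 54.2% of genes called) and 4.64-fold lower at 7 h (log2 -2.22, SE 0.110, adjusted p = 9.21e-10, 68.8% of genes called). At 7 h, 1.24% of genes had a lower log2 fold change than Cirbp. The further fall from 2 h to 7 h was 2.502-fold (log2 -1.32, SE 0.121, adjusted p = 2.88e-07, 68.8% of genes called).

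Rbm3 changed little under the same KCl treatments. It read 896 and 964 TPM at 2 h and 846 and 847 TPM at 7 h, below the control libraries. The log2 fold changes on counts were 0.07 at 2 h (95% interval -0.06 to 0.20, adjusted p = 0.334) and -0.07 at 7 h (95% interval -0.19 to 0.06, adjusted p = 0.333). On log2(TPM + 1) the 7 h value was -0.21 and passed the test (adjusted p = 0.00811, limma). The change from 2 h to 7 h was -0.14 (adjusted p = 0.0526).

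The 2 chemical stresses were also compared with each other. Cirbp was lower in KCl than in H2O2 by 1.37-fold at 2 h (log2 -0.46, adjusted p = 0.00173, 51.3% of genes called) and by 3.79-fold at 7 h (log2 -1.92, adjusted p = 1.31e-09, 78.4% of genes called). Rbm3 did not differ detectably between them at 2 h (-0.03, 95% interval -0.15 to 0.10, adjusted p = 0.739), and at 7 h it was 1.19-fold lower in KCl (log2 -0.25, adjusted p = 0.00141). Doses are not in the labels, so whether the treatments matched in strength is not known.

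**Figure D2:**
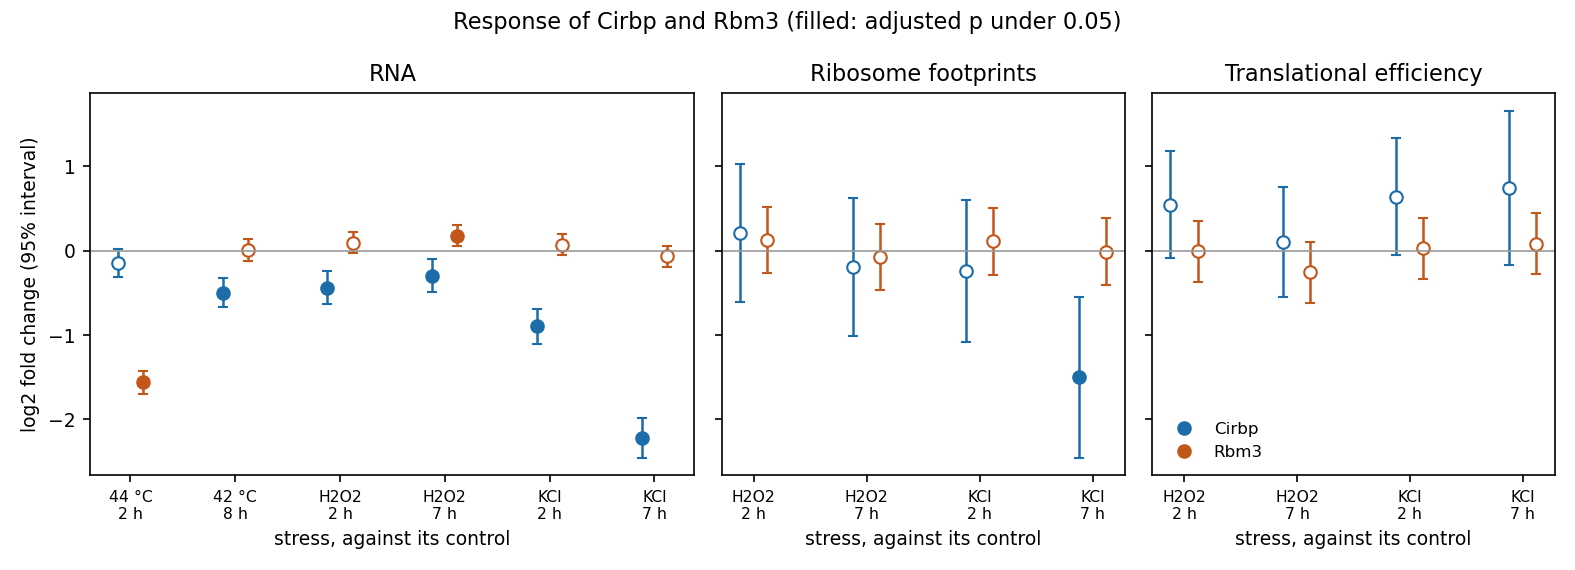
Log2 fold changes of Cirbp and Rbm3 against the matching control for RNA, footprints and translational efficiency, each with its 95% interval from edgeR over 2 libraries a group. Filled points passed an adjusted p of 0.05. Cirbp RNA passed in 5 of 6 contrasts and Rbm3 RNA in 2 of 6, where 53.9% to 71.0% of all genes passed in each. Contrasts of an experiment share their control libraries, so these counts are descriptions.

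Responses of different experiments were compared as differences, each against its own control, in a fit of all 16 RNA libraries (13597 genes). The response of Rbm3 to 44 °C for 2 h differed from its response to 2 h H2O2 by -1.70 (SE 0.094, adjusted p = 1.15e-10, 58.0% of genes called) and from that to 2 h KCl by -1.67 (adjusted p = 1.14e-10, 62.0% of genes called). For the difference from 2 h H2O2 the median of all genes lay at -0.11 on counts and -0.0032 on log2(TPM + 1). For that from 2 h KCl it lay at -0.077 and 0.073. For Cirbp, the response to 44 °C for 2 h was above that to 2 h KCl by 0.71 (edgeR, adjusted p = 8.93e-05), or 1.10 on log2(TPM + 1). Its difference from 2 h H2O2 was 0.25 (adjusted p = 0.0865), a value that passed the test on log2(TPM + 1) (0.57, adjusted p = 5.68e-04). It also passed without replicate 1 of the heat control, of 44 °C, of the H2O2/KCl control or of 2 h H2O2, each left out in turn (0.36 to 0.41, adjusted p from 0.0166 to 0.0378). At the later times the response of Cirbp to 42 °C for 8 h was above that to 7 h KCl by 1.77 (adjusted p = 7.96e-09, 62.9% of genes called) and differed from that to 7 h H2O2 by -0.14 (adjusted p = 0.319, 64.8% of genes called). The corresponding differences for Rbm3 were 0.12 (adjusted p = 0.257) and -0.12 (adjusted p = 0.287). On log2(TPM + 1) the differences from 7 h H2O2 passed the limma test for both genes, at -0.27 for Cirbp (adjusted p = 0.0444) and -0.27 for Rbm3 (adjusted p = 0.0113). The median of all genes for this difference lay at -0.12 on that scale and at 0.012 on counts. The later heat libraries were taken at 8 h and the chemical ones at 7 h, so these times were not equal.

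The ratio of the genes within a library, on TPM, summarises the split. Rbm3 stood 5.80 and 6.37 times above Cirbp at 44 °C for 2 h, against 25.05 and 25.03 times in the heat control. At 42 °C for 8 h it stood 33.5 and 34.2 times above Cirbp. Under H2O2 the ratio was 30.5 and 37.5 at 2 h and 31.9 and 32.7 at 7 h. With KCl it was 41.5 and 49.3 at 2 h and 86.0 and 88.1 at 7 h. In RNA, no stress group overlapped its control, but the share of all gene pairs with such a separation was not counted. Comparisons of the same experiment share their control libraries, so they are not separate observations. The log2 ratio of Cirbp to Rbm3 differed from control by 2.04 at 44 °C and by -1.86 in the 7 h KCl group. The exact two-sided permutation p was 0.333 for each of the 6 RNA comparisons, the smallest that 2 against 2 libraries allow. With CPM, which does not divide by length, the 44 °C value was 1.42 and the 7 h KCl value -2.16, so the TPM ratio also carries the implied lengths of both genes, given further on.

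Ordered by mean RNA TPM, Cirbp ran from the H2O2/KCl control (40.7) through 44 °C for 2 h (35.3), 7 h H2O2 (32.6), the heat control (31.8), 2 h H2O2 (30.3), 42 °C for 8 h (20.9) and 2 h KCl (20.6) to 7 h KCl (9.73). Among neighbours in that order, 7 h H2O2 overlapped the heat control, the heat control overlapped 2 h H2O2, and 42 °C for 8 h overlapped 2 h KCl. Rbm3 ran from 7 h H2O2 (1051) through 2 h H2O2 (1023), the H2O2/KCl control (976), 2 h KCl (930), 7 h KCl (846), the heat control (796) and 42 °C for 8 h (708) to 44 °C for 2 h (215). There the H2O2 groups overlapped each other and no other neighbours did. The controls of the 2 experiments differed in level for both genes, so levels across experiments are set side by side only.

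Ribosome footprints gave far fewer reads for Cirbp than for Rbm3. Cirbp had 5 to 35 expected footprint counts per library and Rbm3 had 617 to 2527. Footprint levels of Cirbp were 14.1 and 15.7 TPM in the control, 20.8 and 13.7 in the 2 h H2O2 group, 14.6 and 13.7 in the 7 h H2O2 group, 10.2 and 14.1 in the 2 h KCl group and 3.98 and 6.03 in the 7 h KCl group. The 7 h KCl libraries were the lowest and lay apart from all others, while each of the remaining groups overlapped the next in order. On counts, the 7 h KCl footprints were 2.83-fold below control (log2 -1.501, SE 0.441, adjusted p = 0.0294 over 10545 genes), in a comparison where 20.4% of genes were called. The count behind this was 5 and 10 against 26 and 27. The call was lost in each of the 4 fits that left out a library of these groups (adjusted p from 0.0640 to 0.158) and with DESeq2 (-1.505, adjusted p = 0.0992).

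Other footprint comparisons of Cirbp were less clear. The log2 fold changes against control were 0.21 in the 2 h H2O2 group (95% interval -0.61 to 1.03, 1.91% of genes called), -0.19 in the 7 h H2O2 group (-1.01 to 0.62, 27.7% of genes called) and -0.24 in the 2 h KCl group (-1.08 to 0.60, 6.86% of genes called). Cirbp footprints were 2.48-fold lower in KCl than in H2O2 at 7 h (log2 -1.31, SE 0.451, adjusted p = 0.0330, 41.2% of genes called), a call also lost in each of the 4 fits without a library of these groups (adjusted p from 0.0723 to 0.164). From 2 h to 7 h KCl the value was -1.26 (adjusted p = 0.0703, 20.6% of genes called), from 2 h to 7 h H2O2 it was -0.40 (adjusted p = 0.468, 29.8% of genes called), and at 2 h KCl stood -0.45 from H2O2 (adjusted p = 0.574, 5.12% of genes called).

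Rbm3 footprints stayed within 948 to 1168 TPM in all 10 libraries, and every group overlapped the next in order. The control libraries read 1123 and 948 TPM and the 7 h KCl libraries 1026 and 981 TPM. Its 4 log2 fold changes against control ranged from -0.08 to 0.13, each with an SE of 0.183, and none passed the test. The widest of the 4 intervals, in the 2 h H2O2 group, ran from -0.27 to 0.52. Footprints of the heat groups were not analysed here.

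Translational efficiency, or footprints per unit of a gene's RNA, separated the genes at baseline. In the H2O2/KCl control the ratio of footprint TPM in each library to the mean RNA TPM of the group was 0.347 and 0.386 for Cirbp and 1.15 and 0.971 for Rbm3. Among 8483 genes with at least 10 TPM in RNA, whose median ratio was 0.625, 21.5% lay below Cirbp and 80.0% below Rbm3. Under stress, the ratio of Cirbp was between 0.409 and 0.685 in the 8 treated libraries, all above both control libraries. The share of all genes with such an order was not counted. Both ratios of a group share its mean RNA TPM, and all groups share the control libraries, so these are not separate observations. For Cirbp the interaction terms did not pass the test. They were 0.55 in the 2 h H2O2 group (adjusted p = 0.249, 11.4% of 10480 genes called), 0.11 in the 7 h H2O2 group (adjusted p = 0.879, 9.27% called), 0.64 in the 2 h KCl group (adjusted p = 0.220, 12.8% called) and 0.75 in the 7 h KCl group (adjusted p = 0.352, 95% interval -0.17 to 1.66, 5.57% called). Leaving out 1 library moved these terms widely. Without footprint replicate 2 of the group in question, the term was 0.93 for 2 h H2O2, 0.34 for 2 h KCl and 0.38 for 7 h KCl, and no fit without a library passed the test. For Rbm3 the interaction terms were between -0.26 and 0.08, with SEs of 0.172 and none passing the test.

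Count and TPM of a gene together imply an effective length, the mean length of its transcript models weighted by their estimated abundance. Expressed relative to the median gene of the same library, this length can be followed across groups, as a measure added after the data had been seen and given with no test. For Rbm3 it was 0.452 in both heat control libraries and 0.581 and 0.600 at 44 °C for 2 h, a gain of 30.7%. Of 10751 genes, 28 had a larger change in either direction. The same measure was 0.449 in both libraries at 42 °C for 8 h and lay between 0.452 and 0.469 in the 10 libraries of the H2O2/KCl experiment. So the longer Rbm3 appeared in the group in which the gene fell.

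For Cirbp the implied length went the other way. It was 0.382 and 0.366 in the heat control and 0.319 and 0.318 at 44 °C for 2 h, a change of -14.8% that 95 genes exceeded in size. At 7 h KCl it was 0.344 and 0.311 against 0.390 and 0.393 in the control, a change of -16.5% that 85 of 10472 genes exceeded. At 42 °C for 8 h it was 0.354 and 0.356. As reference, Gapdh stayed between 0.420 and 0.427 and Actb between 0.643 and 0.648 in all 16 RNA libraries. Because log2 count change equals log2 TPM change plus the length change and a constant of the library, the 44 °C fall of Rbm3 was -1.56 on counts and -1.88 on log2(TPM + 1), and the small value of Cirbp changed sign. Gene-level tables do not show which transcript models made up the change.

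**Figure D3:**
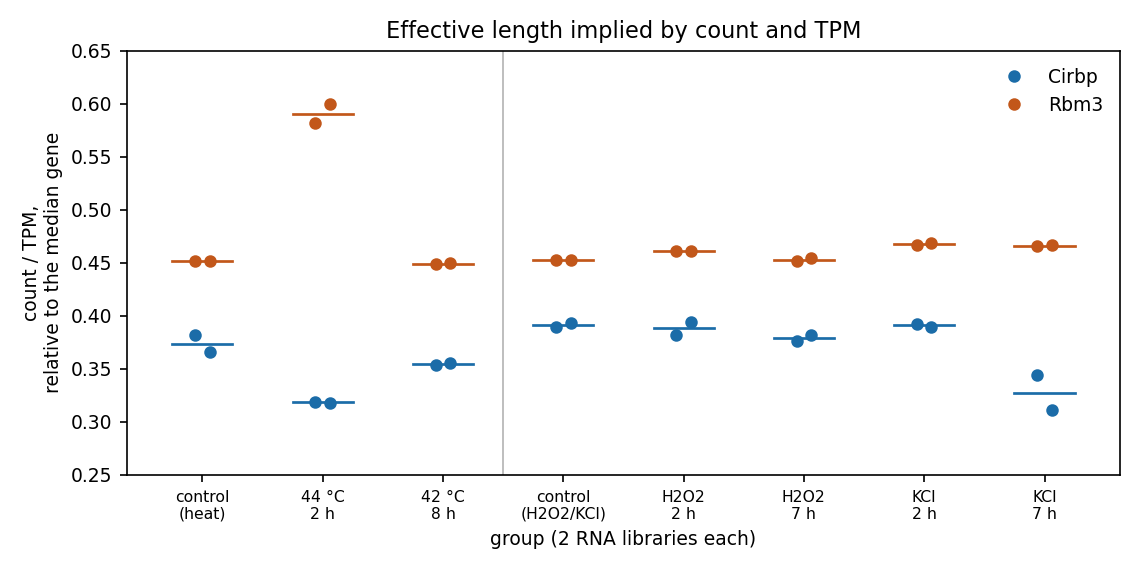
Effective length implied by expected count and TPM, relative to the median gene of the library, in each RNA library by group. Points are libraries and bars are means; Rbm3 is longer at 44 °C for 2 h, and Cirbp is shorter at 44 °C for 2 h and in the 7 h KCl group.

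The antisense RNA Rbm3os was rare, with 5 to 28 expected counts per RNA library. It had 12 and 10 counts in the heat control and 25 and 28 at 44 °C for 2 h (log2 fold change 1.44, SE 0.342, adjusted p = 0.00177). It was also higher in the 7 h KCl group, where Rbm3 was not called on counts, by 1.25 against 2 h KCl (adjusted p = 0.0296) and by 1.13 against 7 h H2O2 (adjusted p = 0.0311), with 0.87 against control (adjusted p = 0.0637). The sources used here do not say whether counting used strand, and 454 bases overlap, so reads of the 2 genes cannot be told apart there.

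Transcription downstream of the genes was recorded by the authors as DoG calls, which mark transcripts that run past the end of a gene, and as read-in calls, which mark transcription that enters the next gene. Over all 6399 gene pairs and 16 RNA libraries, 28.5% of pairs carried a DoG call and 1.38% a read-in call. The 44 °C libraries alone had read-in calls at 1.48% and 1.75% of pairs. For Cirbp, whose downstream neighbour Fam174c starts after a gap of 157 bases, DoG was called in 10 of 16 libraries and read-in in 2, the 44 °C libraries. The authors' deposited read-in estimate, a ratio whose formula no label or header states, was 0.0379 and 0.0439 in the heat control, against 0.0912 and 0.112 after the 44 °C treatment. The 42 °C libraries read 0.0237 and 0.0307. It was 0 in all 4 KCl libraries and at most 0.0195 in the remaining libraries of that experiment. Fam174c itself was higher at 44 °C (log2 0.52, SE 0.084, adjusted p = 6.17e-05), as it was at 42 °C (0.36, adjusted p = 0.00213).

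Rbm3 was called a DoG gene in 15 of 16 libraries and a read-in source in 0 of 16. The gap to its downstream neighbour Wdr13 is 6116 bases. Estimates of read-in were 0 or 0.00558 in the 4 control libraries. They were 0.0690 and 0.0983 at 44 °C for 2 h, 0.0774 and 0.140 in the 2 h H2O2 group and 0.175 and 0.101 in the 2 h KCl group, and lay between 0.0118 and 0.0429 at 42 °C for 8 h and in both 7 h groups. The early stress libraries were therefore above all control and later libraries. Over all pairs, read-in calls were also more frequent in these libraries, so more read-in at these times was not particular to this pair. The calls covered 2.52% and 2.44% of pairs in the 2 h H2O2 group and 2.72% and 2.95% in the 2 h KCl group. Their control had 0.563% and 0.547%, and the 7 h groups had 0.563% to 1.02%. Wdr13 was lower at 44 °C (log2 -0.54, SE 0.058, edgeR, adjusted p = 1.21e-06) and showed -0.06 and 0.03 after 2 h with H2O2 and KCl (adjusted p = 0.448 and 0.747). It was also lower at 42 °C (-0.39, adjusted p = 4.84e-05) and in the 7 h H2O2 group (-0.96, adjusted p = 1.94e-08). In the 7 h KCl group it was at 0.095 (adjusted p = 0.225). Into Rbm3 from its own upstream neighbour Tbc1d25, across 8589 bases, the estimate was at most 0.00542, with DoG calls in 3 libraries and no read-in call.

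**Figure D4:**
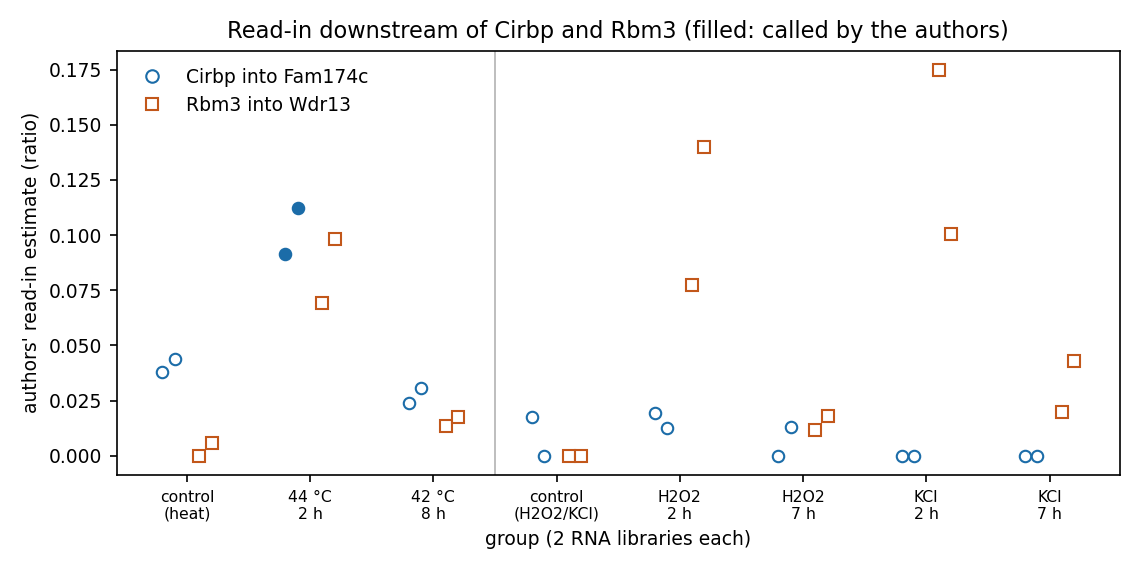
The authors' read-in estimate, a ratio, from Cirbp into Fam174c (circles) and from Rbm3 into Wdr13 (squares) in each of the 16 RNA libraries. Filled points are libraries in which the authors called read-in, which are the 44 °C libraries of the Cirbp pair.

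Proteins known to act on the expression or the temperature-dependent splicing of these genes formed a list of 7: the kinases Clk1 to Clk4, which phosphorylate splicing factors in a temperature-dependent way, the splicing factors Hnrnph1 and Hnrnph2, and Sp1. At 44 °C 4 were higher and 1 lower, led by Clk3 (log2 0.95), with Hnrnph1 at -0.29. At 42 °C 3 were higher and 3 lower, with Clk4 at 0.82 and Clk1 at -0.63, and Sp1 fell by 0.50 on the log2 scale. Under KCl 4 were higher and 1 lower at 2 h, where Clk4 was at 0.92 and Clk2 at -1.52, and 5 were higher and 0 lower at 7 h, where Sp1 was at 0.90. With H2O2, 2 were higher and 1 lower at each time, with Clk3 at 1.01 at 7 h. The called share of all genes was 71.0% for 44 °C, 63.6% for 42 °C, 53.9% and 70.5% for the early and late H2O2 groups and 54.2% and 68.8% for the KCl groups. The 5 of 7 called at 44 °C is near that share. The median of the list ran from -0.02 at 42 °C to 0.39 at 44 °C, and the median of all genes tested lay between -0.0145 and 0.0753 in these 6 comparisons.

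RNA-binding relatives with an RNA recognition motif and a glycine-rich or low-complexity tail (16 genes, among them hnRNP A and D proteins and Tardbp) moved in different directions across the stresses. At 44 °C 12 were lower and 2 higher (median -0.39), led by Hnrnpd at -1.45 and Msi2 at -0.93, with Tardbp at 0.62. At 7 h KCl 9 were lower and 2 higher (median -0.36), with Hnrnpd at -0.94 and Hnrnpdl at -0.83. At 2 h KCl 9 were higher and 1 lower (median 0.22), with Msi2 at 0.72 and Rbmx at -0.39. At 42 °C 11 were higher and 4 lower (median 0.21), which became 5 and 5 on log2(TPM + 1). H2O2 gave 4 higher and 1 lower at 2 h (median 0.12) and 4 higher and 6 lower at 7 h (median -0.08). The shares of all genes called, given above for each comparison, were 53.9% or more.

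Proteins with a cold shock domain bind RNA through another fold, and 6 of the 8 listed were tested in RNA (Lin28a and Lin28b were not). At 44 °C 3 rose and 1 fell, with Carhsp1, a calcium-regulated heat-stable protein, at 0.77. Carhsp1 was also higher in the 7 h H2O2 group (1.84), where 3 rose and 1 fell. At 42 °C 2 rose and 1 fell, in the 2 h H2O2 group 1 rose and 1 fell, in the 2 h KCl group 1 rose and 0 fell, and in the 7 h KCl group 2 rose and 2 fell. The 4 of 6 called at 44 °C is close to the 71.0% of all genes, and the shares of all genes in the other comparisons were 53.9% to 70.5%. The list's medians ran from -0.04 in the 2 h KCl group to 0.38 in the 7 h H2O2 group. In footprints Ybx1, an abundant mRNA-packaging protein, was at -0.89 in the 2 h H2O2 group (adjusted p = 0.0307) and -1.45 in the 2 h KCl group (adjusted p = 9.50e-04).

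Among 6 mRNAs known as bound or regulated by Cirbp or Rbm3, 44 °C gave 4 higher and 1 lower, 42 °C gave 3 and 1, and each time of H2O2 gave 4 and 2. KCl gave 4 and 0 at the early time and 5 and 0 at the late one, and the list's medians ran from 0.13 at 42 °C to 0.70 in the 7 h KCl group. Of all genes, 71.0% were called at 44 °C, 63.6% at 42 °C and 53.9% to 70.5% in the chemical stresses, so 4 of 6 at 42 °C is near the share of all genes. On log2(TPM + 1) the 42 °C counts became 1 higher and 3 lower. Ptgs2, an inducible prostaglandin synthase, was at 3.84 in the 2 h H2O2 group and 3.03 in the 7 h KCl group. Clock, a circadian transcription factor whose mRNA Cirbp is known to bind, was at 0.90 in the 7 h KCl group, 0.69 in the 2 h KCl group, 0.34 in the 2 h H2O2 group and 0.23 at 42 °C, but at -0.33 in the 7 h H2O2 group. Txn1, the thioredoxin whose mRNA Cirbp can stabilise, was at -0.38 at 44 °C and -0.20 in the 2 h H2O2 group, but at 0.29 at 42 °C and 0.23 in the 7 h H2O2 group. Neither gene kept 1 direction over the groups in which Cirbp was lower.

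Core stress granule proteins, 12 genes, split into 7 higher and 3 lower after the 44 °C treatment, and into 9 and 1 at 42 °C (6 and 3 on log2(TPM + 1)). The counts were 3 and 3 in the 2 h H2O2 group, 5 and 3 in the 7 h H2O2 group, 6 and 1 in the 2 h KCl group and 9 and 1 in the 7 h KCl group, with medians from -0.01 in the 7 h H2O2 group to 0.29 in the 7 h KCl group. The 6 of 12 called at 2 h and 8 of 12 at 7 h with H2O2 are close to the 53.9% and 70.5% of all genes, and the shares were 71.0% at 44 °C, 63.6% at 42 °C and 54.2% and 68.8% with KCl. Ddx3x, an RNA helicase, was at 1.06 in the 2 h KCl group and -0.67 at 44 °C. Tia1, which nucleates granules, was at -0.52 in the 2 h KCl group.

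Genes with the most similar responses were ranked by the root mean square difference of log2 fold changes over the 6 RNA contrasts against control, among 9239 genes whose average log2 CPM reached 3 in both RNA fits. Contrasts of an experiment share their control libraries, so these are descriptions. Closest to Cirbp were St6galnac2 (0.21), Taz, Slc4a3, Cln6 and Fbxw5 (0.29), and Rbm3 was ranked 5573 of the 9239 at 1.18. Closest to Rbm3 were Rcn1 (0.18), Rsu1, Vti1a, Gnpda2 and Phpt1 (0.26), and Cirbp was ranked 8549.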

How the data were processed

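RNA and ribosome footprints were measured in NIH3T3 cells, with RNA libraries made by a commercial kit from polyA-selected RNA, per the labels. The authors deposited expected counts per gene and TPM, which the file names attribute to RSEM, and per the submitters' processing notes STAR, RSEM, Bowtie and mm10 were used, in roles and versions not given in the sources used here. The expected counts held only whole numbers, so no rounding was needed. The deposited true or false calls of DoG and read-in, and a read-in estimate (a ratio), cover pairs of neighbouring genes. A further 12 columns, whose names fit no label, stayed unused. Whether counting used strand, the annotation, and the footprint lengths kept were not stated there.

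Tests on the expected counts used edgeR 4.0.16 in R 4.3.3 (glmQLFit and glmQLFTest, quasi-likelihood), after filterByExpr and TMM scaling. Adjusted p-values follow Benjamini and Hochberg over all genes tested within each comparison, with no adjustment across comparisons, and genes below 0.05 were called. The heat and H2O2/KCl RNA libraries, all RNA libraries and the footprint libraries were fitted separately, and translational efficiency was an interaction term over RNA and footprints. Alternatives were DESeq2 1.42.0, RLE factors, limma 3.58.1 on log2(TPM + 1) and log2(TPM + 0.1), limma voom for translational efficiency, no filter, the compared groups alone, a replicate block and leaving out each library. The relative length, among genes with a mean count of at least 100, was added after the data were seen. The scripts were tested on simulated data. Of list genes, the text names up to 3 called genes in each direction by size of change. The genes described and all lists were chosen with earlier results of these data known. Sequences and positions came from RefSeq tables of GRCm38.p6. No promoter or protein sequence of Rbm3 is shown.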

Additional observations from a re-analysis of the deposited data

Results flagged for a closer look

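The response of Cirbp RNA to KCl differed between its time points: the 7 h libraries lay at a log2 difference of -1.32 from the 2 h libraries (SE 0.121, adjusted p = 2.88e-07 by edgeR), lower in 2 of 2 libraries, with 9.84 and 9.62 TPM against 21.6 and 19.6 TPM. The value ranged from -1.44 to -1.23 when each library was left out. The implied length of Cirbp was also shorter at 7 h than at 2 h (0.344 and 0.311 against 0.392 and 0.390), and its part in the difference was not tested. Groups of 2 libraries were not examined for outlying samples.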

How the results depend on the processing

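Over 64 results for Cirbp and Rbm3, 600 of 676 alternative values counted as unchanged. For tested results this meant the same direction and side of the threshold. For the Cirbp to Rbm3 ratios it meant a value within the spread of the replicates, with sign not checked. All 38 sign changes counted among tested results belonged to results that were not called. With a library left out, the log2 footprint ratio against control also changed sign under H2O2. It ran from -0.31 to 0.55 at 2 h and from -0.32 to 0.079 at 7 h. The falls of Rbm3 at 44 °C and of Cirbp at 42 °C, and in the 2 h H2O2 group and both KCl groups, kept their RNA calls under every alternative run. The counts behind Cirbp footprints were the main limit of precision, at 5 to 35 per library. The cause of the changes listed here was not tested.

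On log2(TPM + 0.1) and then log2(TPM + 1), Cirbp RNA was 0.15 and 0.15 at 44 °C, its 42 °C response minus that to 7 h H2O2 was -0.28 and -0.27, its 44 °C response minus that to 2 h H2O2 was 0.58 and 0.57, and its footprints from 2 h to 7 h KCl were -1.27 and -1.13. Rbm3 on these scales was -0.17 and -0.17 at 42 °C, 0.11 and 0.11 in 7 h H2O2, -0.071 and -0.071 in 2 h KCl, -0.21 and -0.21 in 7 h KCl, and -0.27 and -0.27 for the 42 °C response minus that to 7 h H2O2. Its footprints were 0.043 and 0.043 in 7 h H2O2 and -0.083 and -0.083 for KCl against H2O2 at 7 h. The median of all genes at 42 °C was -0.0145 on counts, -0.16 on log2(TPM + 1) and -0.20 on log2(TPM + 0.1). DESeq2 gave Cirbp footprints of -1.505 in 7 h KCl (adjusted p = 0.0992) and -1.31 for KCl against H2O2 at 7 h (adjusted p = 0.114). DESeq2 and then RLE factors gave Rbm3 RNA of -0.15 and -0.15 from 2 h to 7 h KCl, and Rbm3 footprints of 0.0073 and 0.0074 in 7 h KCl and 0.0077 and 0.0089 for KCl against H2O2 at 2 h. Rbm3 RNA in 7 h H2O2 was 0.12 with the compared groups alone. Rbm3 translational efficiency in 2 h H2O2 was 0.011 with RLE factors, 0.00085 with voom and 0.048 with no filter. With CPM in place of TPM, the log2 ratio of Cirbp to Rbm3 changed by -0.50 at 42 °C, 1.42 at 44 °C and -2.16 in 7 h KCl.

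Leaving out each library in turn gave, for Cirbp RNA, -0.22 to -0.066 at 44 °C, -0.41 to -0.26 in 7 h H2O2 and 0.17 to 0.41 for the 44 °C response minus that to 2 h H2O2. Cirbp footprints ranged from -0.020 to 0.53 in 2 h H2O2, from -0.55 to 0.018 in 2 h KCl, from -1.85 to -1.26 in 7 h KCl and from -1.65 to -1.07 for KCl against H2O2 at 7 h, and its translational efficiency in 7 h H2O2 from -0.0092 to 0.24. Rbm3 RNA ranged from -0.039 to 0.061 at 42 °C, from 0.074 to 0.21 in 7 h H2O2, from -0.18 to -0.086 between 2 h and 7 h KCl and from -0.073 to 0.026 for KCl against H2O2 at 2 h. Rbm3 footprints ranged from -0.015 to 0.24 in 2 h H2O2, from -0.058 to 0.27 in 2 h KCl, from -0.28 to 0.048 between 2 h and 7 h KCl, from -0.096 to 0.084 in 7 h KCl and from -0.18 to 0.15 for KCl against H2O2 at 2 h. Cirbp translational efficiency ranged from 0.38 to 0.93 in 2 h H2O2, from 0.34 to 0.91 in 2 h KCl and from 0.38 to 0.98 in 7 h KCl, uncalled in each fit. Rbm3 translational efficiency ranged from -0.15 to 0.11 in 2 h H2O2 and from -0.14 to 0.19 in 2 h KCl.

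With a replicate block, Rbm3 at 44 °C was -1.56 (edgeR, adjusted p = 5.09e-10) and Cirbp in 7 h KCl was -2.22 (adjusted p = 8.42e-10), and no call of either gene changed. Libraries with the same number deviated together in 1 of 3 pairs of heat groups, 2 of 10 pairs of H2O2/KCl RNA groups, 6 of 10 pairs of footprint groups and 0 of 5 RNA and footprint pairs (correlation over 0.1). Footprint correlations ran from -0.40 to 0.44, and what lay behind them was not tested. The main fits did not pair libraries by number, and the block above gives the values with such pairing. Over all genes, the count of translational efficiency calls with voom was 661 and 645 for H2O2 and 733 and 221 for KCl, against 1199, 971, 1337 and 584. Footprint calls in 2 h H2O2 numbered 201, against 27 with the compared groups alone, 45 and 40 on the TPM scales and 315 with no filter. In 2 h KCl they numbered 723, against 463 with the compared groups alone and 477 on log2(TPM + 1), and for KCl against H2O2 at 2 h 540, against 145 with the compared groups alone and 350 and 354 on the TPM scales. Without 1 library, footprint calls numbered 37 to 145 in 2 h H2O2, 1681 to 2245 in 7 h H2O2 (2925 with all libraries), 211 to 421 in 2 h KCl and 996 to 1381 in 7 h KCl (2148 with all). They numbered 1828 to 2518 from 2 h to 7 h H2O2 (3139), 802 to 1256 from 2 h to 7 h KCl (2170) and 122 to 429 for KCl against H2O2 at 2 h. Translational efficiency calls numbered 586 to 1887 and 453 to 915 for H2O2 and 775 to 1305 and 230 to 534 for KCl, so the shares of all genes called in these comparisons rest on the libraries used.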
